A study of Drosophila melanogaster with 2 samples.

Results

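The genes described here encode the machinery of the synapse: proteins of synaptic vesicle release and the active zone, enzymes and transporters of the neurotransmitters, voltage-gated and calcium-gated ion channels, a subunit of the sodium pump, the GABA receptor subunit Rdl and the microtubule-associated protein futsch. They were a list of 33 named genes, grouped by function, of 13945 protein-coding genes in the annotation. No measured value entered the list's rule, but the list was chosen with earlier results of these data known. Of the symbols, 32 matched the Ensembl annotation directly, and Trh, for neuronal tryptophan hydroxylase, was matched to its current symbol Trhn. Binding of the homeodomain transcription factor bsh (brain-specific homeobox) was mapped by chromatin immunoprecipitation and sequencing (ChIP-seq) with an antibody against GFP, in a transgenic Drosophila melanogaster line that carries bsh with GFP fused at its C-terminal end. The 1 group comprised 2 biological replicates of whole embryos, male and female together, of 0 to 24 h, and no control sample was analysed here. The depth of each sample is unknown because the deposited lists hold regions and no read numbers.

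In a neuron, an action potential carried by sodium and potassium channels opens calcium channels at the active zone, and the calcium triggers fusion of vesicles through SNARE proteins and synaptotagmins. Most genes of this machinery are switched on as neurons mature, late in embryogenesis. bsh is known in the literature as a regulator of neuron identity in parts of the brain. The embryos were taken whole, so a region bound in few cells and a region bound weakly in many cannot be told apart.

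A minority of these genes had a reproducible region, as did a minority of all genes. The authors' list of regions that passed an irreproducible discovery rate (IDR, which scores the agreement of region ranks in replicates) held 4447, which were the strongest by signal among the 30000 of the relaxed list called on the pooled reads. Genes with the summit of such a region inside them, or at most 2 kb away, are called bound here. This held for 6 of the 33 genes (18.2%, Wilson 95% interval 8.61 to 34.4%), against 24.9% of all protein-coding genes, which lies within that interval. The bound genes were Syn, Rab3, Syx1A, ple, Ddc and slo. The 33 genes were long, with a median of 24.4 kb against 2.17 kb for all genes, and long genes are bound more often. Among the 1969 genes between the quartiles of their lengths (7.87 to 44.5 kb), 46.6% were bound, which lies above the interval for the 33 genes. This band leaves out the shortest and longest of the 33, among them the bound genes Syx1A, ple, Ddc and slo. It therefore matches the 33 genes only in part. The difference from these shares was not tested.

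**Figure D1:**
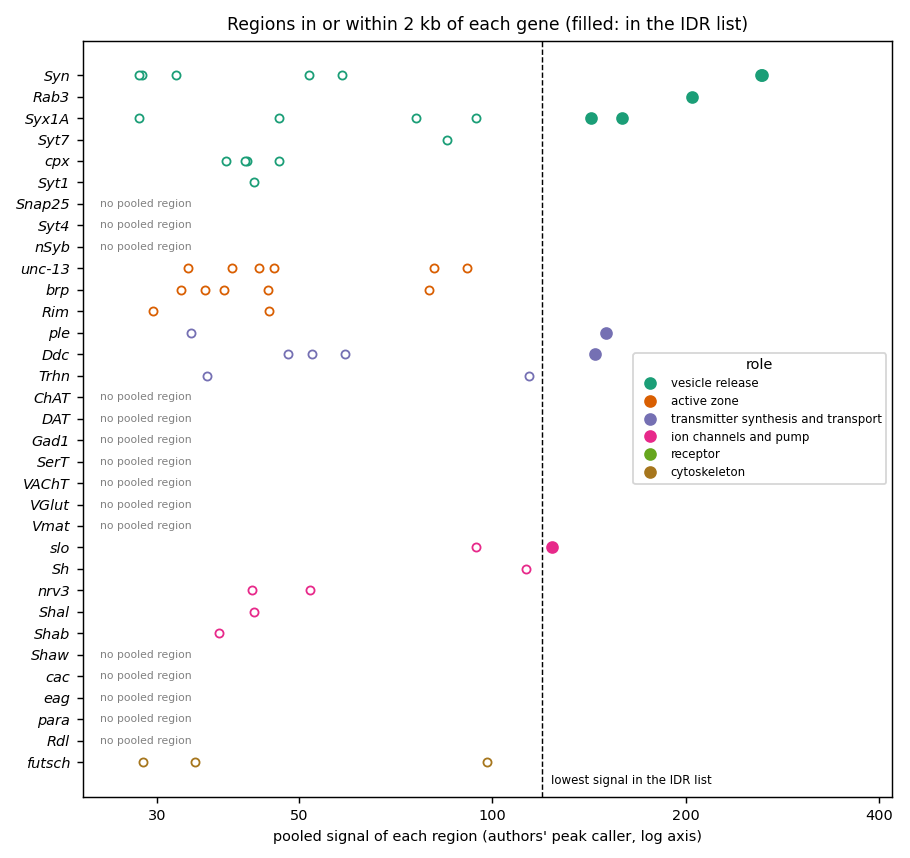
Each row is 1 gene, grouped by role, and each point is 1 region of the relaxed pooled list with its summit in the gene or within 2 kb; the log axis gives the signal written by the authors' peak caller. Filled points, for 6 genes, are in the IDR list, whose lowest signal (119.6) is the dashed line; 15 genes had no pooled region.

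The sequence under 4 of the 8 bound summits is shown because these windows, 100 bp to each side of the summit, held no annotated exon base of a protein-coding gene. They come from the intron of Syn, from upstream of Ddc, from upstream of Syx1A and from upstream of slo. They are given on the plus strand of dm6, from the RefSeq copy of the assembly. Capitals mark a match, on either strand, to any of 4 words: TAATTA and CAATTA, words of the homeodomain class, GAGAGA, the word of the GAGA factor, and CAGGTA, a word bound by the early activator Zelda.
Syn, chr3R:10213541-10213741: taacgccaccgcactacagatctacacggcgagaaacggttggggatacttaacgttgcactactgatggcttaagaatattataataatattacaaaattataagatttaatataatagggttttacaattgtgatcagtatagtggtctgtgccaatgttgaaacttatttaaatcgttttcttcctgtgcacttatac
Ddc, chr2L:19121047-19121247: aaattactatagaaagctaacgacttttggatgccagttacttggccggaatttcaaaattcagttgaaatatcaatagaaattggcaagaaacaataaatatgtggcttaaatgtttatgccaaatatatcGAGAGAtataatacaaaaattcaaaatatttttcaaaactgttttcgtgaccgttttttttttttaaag
Syx1A, chr3R:24106370-24106570: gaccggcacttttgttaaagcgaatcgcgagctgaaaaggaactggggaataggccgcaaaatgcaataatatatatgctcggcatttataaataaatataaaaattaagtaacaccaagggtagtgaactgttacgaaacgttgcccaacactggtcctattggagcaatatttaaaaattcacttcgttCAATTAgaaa
slo, chr3R:24662155-24662355: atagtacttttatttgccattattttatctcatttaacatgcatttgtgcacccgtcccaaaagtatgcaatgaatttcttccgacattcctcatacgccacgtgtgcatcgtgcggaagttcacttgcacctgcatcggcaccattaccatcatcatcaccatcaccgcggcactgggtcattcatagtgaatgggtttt
The Ddc window held GAGAGA and the Syx1A window CAATTA, and these letters of the 4 words were not found in the windows of Syn and slo. Bases G and C made up 34.3% of the Syn window, 27.4% of the Ddc window, 36.8% of the Syx1A window and 43.8% of the slo window.

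Among the 9 vesicle release genes, Syn, Rab3 and Syx1A were bound. Syn, which encodes synapsin, a protein that tethers vesicles in the reserve pool, had the strongest regions of all 33 genes. The stronger had a pooled signal of 263.1 and rank 1203, with a signal of 144.3 and rank 1299 in replicate 1 and 118.8 and rank 1196 in replicate 2. Its summit lay in an intron of Syn, in the sequence printed above, 634 bp from the start site of the nested gene Timp. The other Syn region (chr3R:10189577-10189791) had a signal of 262.1 and ranks 1134 and 1332. Its summit was 1032 bp upstream of Syn and 54 bp from the transcription start site (TSS) of CG12814. Both Syn regions thus stood nearer to the start of another gene than to that of Syn.

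Syx1A, which encodes syntaxin, the SNARE of the plasma membrane, had 2 IDR regions. That at its own promoter (chr3R:24105379-24105818, summit 164 bp from the TSS) had a signal of 159.2, with 82.4 and rank 3398 in replicate 1 and 71.5 and rank 3081 in replicate 2. The upstream summit, 707 bp from the Syx1A TSS and in an intron of eIF4EHP, a gene for a translational repressor, had a signal of 142.3 and ranks 3427 and 4699. Syx1A also had 4 weaker pooled regions, with signals from 28.1 to 94.3.

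Rab3, a small GTPase of synaptic vesicles, was bound only through a summit 1910 bp upstream of the gene. That region had a signal of 204.4 and ranks 2100 and 1640, and its summit was 195 bp from the TSS of Daao1. In replicate 1 the summit of the overlapping region lay 2005 bp from Rab3, just past the 2 kb limit. Rab3 thus depends on the distance rule and lies beside the promoter of another gene.

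The other vesicle release genes had no IDR region. Syt7, a synaptotagmin gene, had 1 pooled region (signal 84.9, rank 7631), which had rank 3271 in replicate 2 and no overlapping region in replicate 1, and was 103 bp from the TSS of Rad23. cpx, which encodes complexin, a clamp on vesicle fusion, had 4 pooled regions with signals from 38.5 to 46.6. Syt1, the fast calcium sensor of release, had 1 region with a signal of 42.5, 751 bp upstream of its TSS. The vesicle SNARE gene nSyb had a region in each replicate, of rank 8050 and 8028, with summits 1943 and 1985 bp outside the gene, but no pooled region within 2 kb. Syt4 and Snap25, the latter encoding a further plasma membrane SNARE, had a region in none of the relaxed lists. Snap25 spans 225.0 kb, and its nearest pooled summit was 422541 bp away.

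The 3 active zone genes had weak regions only. brp, which encodes the scaffold Bruchpilot, had 5 pooled regions. The strongest, in an intron, had a signal of 79.6, rank 11302 in replicate 1 and no overlapping region in replicate 2. unc-13, whose product primes vesicles for fusion, had 6 pooled regions. The strongest (signal 91.2, ranks 6834 and 6348) lay 1059 bp downstream of the gene and 260 bp from the TSS of Gyf. Rim, a scaffold that links vesicles to calcium channels, had 2 regions with signals of 44.8 and 29.6. None of these 3 genes reached the IDR threshold.

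Of the 10 genes for transmitter synthesis and transport, the 3 with a pooled region were those for enzymes of monoamine synthesis. ple encodes tyrosine hydroxylase, the rate-limiting enzyme of dopamine synthesis, and Ddc encodes dopa decarboxylase, which completes dopamine and serotonin. In the fly both enzymes also act in the epidermis, where dopamine is used to harden and pigment the cuticle. The ple region (chr3L:6717034-6717473), in an intron 2271 bp from the TSS, had a signal of 150.2, with 69.4 and rank 4505 in replicate 1 and 72.7 and rank 2973 in replicate 2. It was the single IDR summit of the 8 that had no other protein-coding gene within 2 kb. The Ddc region, in the sequence printed above 841 bp upstream of its TSS, had a signal of 144.3, with 82.0 and rank 3419 in replicate 1 and 55.7 and rank 4726 in replicate 2. In each of these genes 1 replicate placed the region above rank 4447 and the other below it.

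Trhn, which encodes the neuronal tryptophan hydroxylase of serotonin synthesis, was just outside the IDR list. Its strongest region had a signal of 113.9 and pooled rank 4820, with rank 4357 in replicate 1 and 8482 in replicate 2. The summit was 1071 bp downstream of Trhn and 275 bp from the TSS of CG13912. The other 7 genes of the group had no pooled region. They were ChAT and VAChT, for the synthesis and vesicular loading of acetylcholine, Gad1, for GABA synthesis, VGlut and Vmat, the vesicular transporters of glutamate and monoamines, and SerT and DAT, the reuptake transporters of serotonin and dopamine. ChAT and VAChT share a first exon and a start site, so they are not separate observations. SerT and DAT each had 1 region in each replicate, of rank 20164 and 7537 for SerT and 11717 and 21478 for DAT. ChAT, VAChT, Gad1, VGlut and Vmat had a region within 2 kb in none of the lists. The IDR summit nearest to Gad1 was 2316 bp outside the gene, just past that limit.

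Of the 9 channel and pump genes, slo was bound. slo encodes the large-conductance potassium channel gated by calcium and voltage. Its region, 236 bp from its TSS and printed above, had a signal of 124.0, the lowest of the 8 bound summits, and ranks of 4626 and 4825, so it was below rank 4447 in each replicate alone. Sh, the Shaker potassium channel gene, was next outside the threshold, with a signal of 113.0 and rank 4882 for an intronic summit 5858 bp from its TSS. That region had rank 5939 in replicate 1 and no overlapping region in replicate 2. It was the single pooled region in the 138941 bp of Sh, although the relaxed lists of the replicates held 4 and 3.

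The other channel genes were lower. nrv3, which encodes a neuronal beta subunit of the sodium pump, had 2 overlapping promoter regions with signals of 52.1 and 42.1. The potassium channel genes Shal and Shab had 1 region each, with signals of 42.6 and 37.5, and Shaw, another of this family, had none. cac, which encodes the calcium channel of the active zone, para, the sodium channel gene of the action potential, and the potassium channel gene eag had no pooled region. In the relaxed replicate lists Shaw and para each had 2 regions in replicate 1 and none in replicate 2, and cac and eag had none in either. Rdl had 1 region in replicate 1, of rank 22233, and none in the pooled list. At futsch, the strongest of 3 regions had its summit 10 bp from a TSS of the gene, with a signal of 98.2 and ranks 6864 and 6884.

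The replicates were compared at the 8 bound summits. Within the 4447 strongest regions of each replicate, both replicates held a region overlapping 4 of the 8, which belonged to Syn, Rab3 and Syx1A. The matched share over all IDR regions is not given here, so this count describes these 8 summits only. With each replicate's own 4447 strongest regions as the list, 4 genes were bound in replicate 1 (Syn, Syx1A, Ddc and Trhn), against 24.7% of all genes. In replicate 2 these were 5 (Syn, Syx1A, Rab3, ple and Syt7), against 26% of all genes. Syn and Syx1A were bound in both. Replicate 2 had 13 mitochondrial regions, which replicate 1 and the pooled list lacked, and these shift its nuclear ranks by at most that number.

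**Figure D2:**
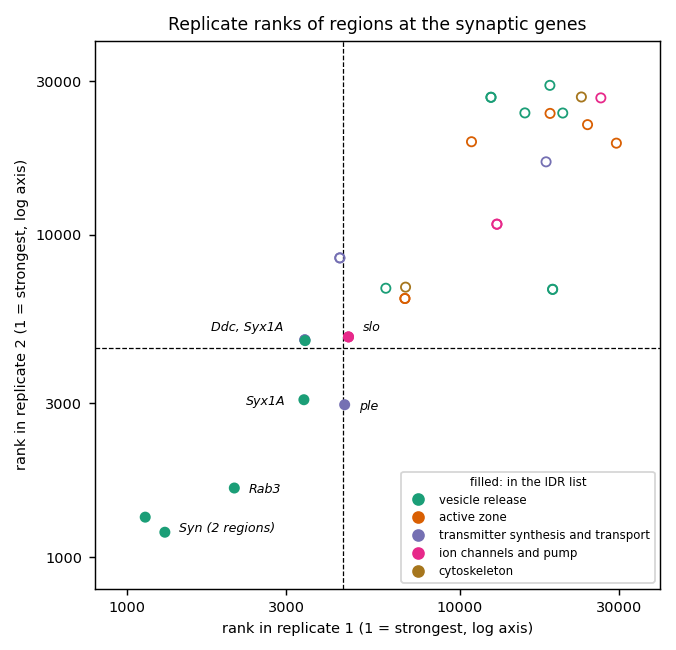
Each point is a pooled region at 1 of the 33 genes that overlaps a region in both replicates, placed by its rank in replicate 1 and replicate 2 on log axes; filled points are in the IDR list and dashed lines mark rank 4447. The Syn regions, with ranks from 1134 to 1332, stand apart from the other bound regions, of which slo, ple, Ddc and 1 Syx1A region lie beyond a dashed line.

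In the relaxed pooled list, which also holds background regions, 18 of the 33 genes had a summit (54.5%), against 59.8% of all genes and 77.8% of genes between the quartiles of their lengths. The order against all genes turned in the relaxed lists of the replicates, with 22 of 33 (66.7%, against 61.9%) in replicate 1 and 21 of 33 (63.6%, against 61.6%) in replicate 2. Limited to regions with a deposited −log10 q of at least 2, the count was 12 of 33 (36.4%), against 46.3% of all genes. No relaxed list, pooled or replicate, held a region for 9 of the 33 genes (27.3%), against 33.5% of all genes and 16.2% of genes between the quartiles of their lengths. The 18 genes had 51 relaxed regions between them, with a median rank of 17047. Pairs of these regions overlap at Syn, Syx1A, brp, unc-13, Trhn, Ddc, slo and nrv3, so the counts of regions include neighbouring summits of 1 stretch. Of these 51 regions 62.7% overlapped a region in both replicates, against 75.01% of all relaxed pooled regions.

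Over the genome the share of bound genes rose with gene length, while none of the longest of the 33 genes was bound. Of genes of 50 kb or more, 60.9% were bound and 79.2% had a relaxed region. The 6 genes of that length here were Snap25, Sh, para, Shab, eag and cac. Of these, 0 were bound and 2 had a relaxed region. Of the 4 genes under 5 kb (Trhn, Ddc, Syx1A and Syt4), 2 were bound, against 18.4% of all genes that short. From 5 to 10 kb, 2 of 5 were bound, against 35.9%. From 10 to 20 kb, 0 of 6 were bound, against 44.6%, and from 20 to 50 kb, 2 of 12, against 54.4%.

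**Figure D3:**
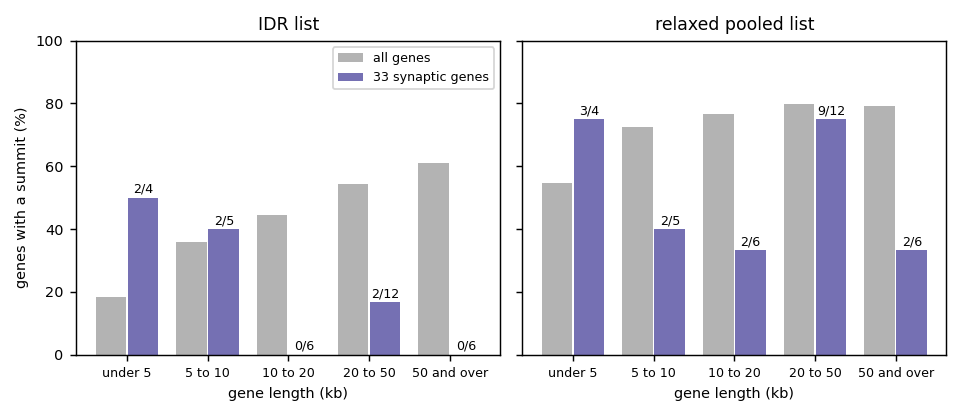
Bars give the percent of genes with a summit in the gene or within 2 kb by gene length, in the IDR list (left) and the relaxed pooled list (right), for all protein-coding genes and for the 33 synaptic genes, with counts printed above the latter. In the IDR list the share over all genes rises from 18.4% under 5 kb to 60.9% at 50 kb and over, while the synaptic genes stand at 2 of 4 and 0 of 6.

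Summits per length of DNA take gene length into account. The 33 genes with 2 kb on each side cover 1.28 Mb and held 8 IDR summits, or 6.27 per Mb (exact Poisson 95% interval 2.71 to 12.4). The 6 assembled arms held 33.2 per Mb, and all gene windows together 38.1 per Mb. In the relaxed pooled list the 33 genes had 51 summits, or 40.0 per Mb (29.8 to 52.6), which is 0.178 times the 224.1 per Mb of the arms. Genes between the quartiles of their lengths had 286.2 per Mb, and genes of 50 kb or more 213.4 per Mb. The intervals cover counting error only, and summits in 1 gene are not independent.

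The low density was present in each replicate. With its own 30000 relaxed regions, replicate 1 had 48.6 summits per Mb at the 33 genes and replicate 2 had 44.7. Their mean of 46.6 ± 2.77 (SD, n = 2) compares with 224.0 per Mb over the arms. In the strongest 4447 regions the mean was 5.09 ± 0.554 (SD, n = 2) per Mb, against 33.2 over the arms. Both differences are larger than the spread between replicates. That spread is between 2 lists over the same 33 genes, and it does not measure how sets of genes vary. Leaving out Snap25, which lies in a wide stretch without regions, gave 48.7 per Mb in the relaxed pooled list. How well reads can be placed uniquely at these genes was not tested.

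**Figure D4:**
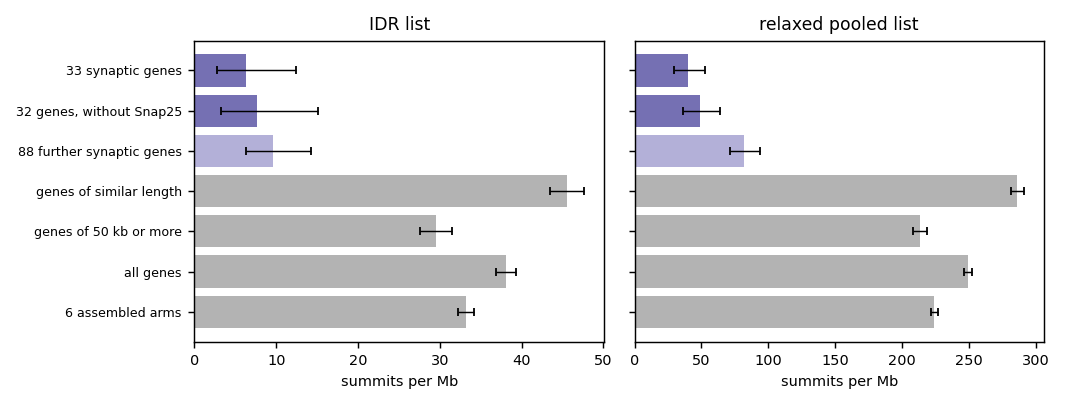
Bars give summits per Mb in gene windows (the gene with 2 kb on each side, overlaps merged) for the IDR list (left) and the relaxed pooled list (right), with exact Poisson 95% intervals as error bars; genes of similar length are those between the length quartiles of the 33. The 33 synaptic genes stand at 6.27 and 40.0 per Mb, below the arms at 33.2 and 224.1 per Mb.

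By role, the channel and pump genes held 7 relaxed summits in 0.517 Mb, or 13.5 per Mb (5.44 to 27.9), while replicate 1 alone gave 34.8 and replicate 2 alone 21.3 per Mb. Vesicle release genes had 50.4 per Mb (30.8 to 77.8) in the pooled list, 40.3 in replicate 1 and 60.5 in replicate 2. Transmitter genes had 59.3 per Mb (25.6 to 116.8) in the pooled list and the same in each replicate, from 8 summits in each list. These 8 lay at 3 genes in the pooled list and at 5 in each replicate, so they were not the same regions throughout. Active zone genes had 94.1 per Mb (50.1 to 160.9) in the pooled list, 115.8 in replicate 1 and 72.4 in replicate 2. In replicate 1 the interval of the channel and pump genes (20.6 to 55.0) held the value of the vesicle release genes. The roles hold few genes, and no difference between them was tested.

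The 8 bound summits had a median signal of 154.7, against 182.7 over all 4447 regions, whose highest was 2129.83. Both Syn summits and that of Rab3 were above the median of the list, and the other 5 were below it. By location 4 of the 8 were promoter summits (within 500 bp of a protein-coding TSS), 3 intronic and 1 intergenic. Over the IDR list 36.9% were at promoters, 43.0% in introns and 18.5% intergenic. Of the 51 relaxed summits 22 were at promoters (43.1%, against 27.4% of all relaxed summits), but 12 of these 22 were nearest to the TSS of a gene among the 33, and the others to that of a neighbour. Summits at the 33 genes lie in or within 2 kb of a gene by rule. The full lists also hold summits farther from genes, so these location shares are not like for like. Of the 8 bound summits 7 had at least 1 other protein-coding gene within 2 kb, so the assignment to the synaptic gene is not unique. How often this holds over all IDR summits is not given here. Neither this count nor the 12 of 22 above can thus be called particular to these genes.

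The 4 words were counted within 100 bp of the 51 relaxed summits, of which some lie in overlapping regions. TAATTA was in 7 of the 51 windows (13.7%), against 13.6% of all IDR summits and 12.4% of all relaxed summits. CAATTA was also in 7 (against 15.9% and 17.0%), GAGAGA in 9 (17.6%, against 16.3% and 11.9%) and CAGGTA in 1 (1.96%, against 3.58% and 3.99%). At the 8 bound summits GAGAGA was in 3, TAATTA and CAATTA in 1 each and CAGGTA in 0. No difference from the shares over all summits was tested.

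Further genes of the same pathways were counted beside the 33. The list held 88 genes for other release and active zone proteins, transmitter enzymes and transporters, transmitter receptors, channels, pump subunits and synaptic adhesion molecules. Of these, 16 were bound (18.2%, interval 11.5 to 27.5%) and 46 had a relaxed region (52.3%), against the same 24.9% and 59.8% of all genes. Their windows held 82.2 relaxed summits per Mb (71.5 to 94.0), above the density at the 33 genes and below that of the arms. The count differed between the replicates' own lists, with 16 bound in replicate 1 and 21 in replicate 2.

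The 6 strongest of these 88 had a higher signal than any of the 33 genes. nrv1, which encodes another beta subunit of the sodium pump, led with a signal of 443.6 at a summit 229 bp from its TSS, ranked 273 in replicate 1 and 601 in replicate 2. The potassium channel gene KCNQ had 340.6 in an intron, 777 bp from the TSS of mlt, and Ca-beta, for an auxiliary subunit of calcium channels, had 324.9 in an intron. CASK, a scaffold gene, had 295.5 near tsl, and the synaptotagmin gene Sytbeta had 287.7 beside the TSS of Reck. The channel gene NaCP60E had 282.6, 30 bp from the TSS of RpL41. Hk, which encodes the beta subunit of the Shaker channel, had 262.8 at its own promoter, 179 bp from the TSS. unc80, a subunit gene of a sodium leak channel, had 253.2 near Hsdl2, Irk1, an inward rectifier potassium channel gene, had 240.1 in an intron, and qvr, which encodes a regulator of Shaker, had 218.2 near E(Pc). Of these 10 summits, 3 had the named gene's own TSS nearest, those of nrv1, Hk and Irk1. The like share over the strongest summits of all bound genes is not given here.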

How the data were processed

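ChIP-seq regions of bsh-GFP in 2 replicates of 0 to 24 h embryos were analysed from 4 region lists on dm6. Per the labels, chromatin was sonicated to 200 to 800 bp. Per the file records, the authors called relaxed lists on each replicate and on pooled reads, and a list passing an IDR threshold. Which tools aligned reads and called regions, and at which IDR, was not given in the sources used here. In these lists the deposited signal is the authors' peak caller's own value, of unknown scale, and served to rank regions within a list. The deposited q-value, on the −log10 scale, reached its highest value at all 8 bound summits. Several regions outside the IDR list had the same value, among them 1 at unc-13 of pooled rank 6856. It therefore does not set the bound summits apart. The lists on dm3 were not used.

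Genes, start sites and exons came from Ensembl release 115 (BDGP release 6), and sequence from RefSeq's copy of that assembly. The assignment of summits to genes was tested on simulated positions. Regions were matched between lists by at least 1 bp of overlap. With 1 group of 2 replicates no test between groups exists, so counts are given beside those of all genes. Genes were named by a rule: every gene of the list, the bound ones in full, then the others by rank, and the 10 strongest of the 88 further genes. The genes and lists were chosen with earlier results of these data known. Of the 88 symbols, 86 matched directly and the rest by an older symbol. Alternatives were the distance rule, a stricter and a looser list, each replicate alone, and other word windows. Analyses used Python 3.11.15, numpy 2.4.6, pandas 2.3.3, scipy 1.17.1, matplotlib 3.10.9 and Biopython 1.88.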

Additional observations from a re-analysis of the deposited data

How the results depend on the processing

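Of 60 alternative values 22 moved by more than a tolerance, which was 1.5 times for counts of genes, the SD between replicates for densities and the Wilson 95% interval of the main share for words. The cause was not tested, beyond the fact that narrower rules and shorter lists hold fewer summits by construction. With summits in the gene only, 3 of the 33 genes (Syn, Syx1A and ple), 1616 of all genes and 9 of the 88 further genes were bound, and 10 of the 33 had a relaxed region (30.3%, against 35.6% of all genes). With summits within 1 kb of a TSS of the gene the bound counts were 3, 2100 and 7, with 600 of the 1969 genes of similar length, and 10 of the 33 had a relaxed region (30.3%, against 48.8% of all genes and 69.9% of those of similar length). Counting only the gene of the nearest TSS left 4 of the 33 (Ddc, Syx1A, ple and slo; 12.1%, against 17.2% of all genes and 39.3% of those of similar length) and 7 of the 88. The strongest 2223 regions of the IDR list gave 2 of the 33 (Syn and Rab3) and 2108 of all genes. The 10000 strongest pooled regions gave 12 of the 33, 5887 of all genes and 31 of the 88. In each of these settings the share of the 33 genes bound was below that of all genes. Within 5 kb, 9 of the 33 were bound, against 36.2% of all genes. The added genes were Gad1, Syt1 and eag, with IDR summits 2316, 2390 and 2254 bp outside them. Within 5 kb 25 of the 33 had a relaxed region (75.8%, against 69.6%), which turned the order of these 2 shares. The relaxed count of 21 to 22 in the replicates alone turned it too, while the share stayed below the 81.2% and 79.0% of genes of similar length.

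Leaving out each replicate in turn gave 4 to 5 bound genes of the 33, 4.70 to 5.49 top summits per Mb and 44.7 to 48.6 relaxed summits per Mb. Without Snap25 the densities were 7.64 and 48.7 per Mb; these density alternatives were chosen after seeing the data. With windows of 200 bp each side, which hold more sequence, GAGAGA was at 31.4% of the 51 relaxed summits (against 30.1% of all IDR and 21.3% of all relaxed summits), CAATTA at 25.5% (28.2% and 31.3%), TAATTA at 21.6% (21.2% and 22.5%) and CAGGTA at 7.84% (7.92% and 7.95%). Bound summits matched by a region among the 4447 strongest of each replicate belonged to 3 genes (Syn, Rab3 and Syx1A) under each matching rule. No matched share over all IDR regions stands beside this count. No paired analysis was possible because the samples form 1 group. With depth unknown, signal was not compared between lists.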
